A study of Mus musculus with 55 samples.

Results

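The retinoic acid pathway genes described here are Aldh1a1, Crabp2, Rara, Rarb, Rxra, Rxrb, Rxrg and Cyp26b1, which make up 8 of the 55487 genes counted in mouse dorsal hippocampus. They were selected on earlier results of the same libraries: Aldh1a1 was chosen by its level in Cnih3 knock-out (KO) mice in diestrus, where it was higher, and the other 7 were named with it as members of the pathway. Aldh1a1 is therefore given as a description, with no test, in every comparison that holds KO diestrus mice. All 8 members passed the filter on low counts, which kept genes above 1 CPM (a count scaled to the total of its library, per 1000000 counts) in at least 10 libraries and left 16168 genes to be tested.

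RNA was sequenced from the dorsal hippocampus of 55 mice on a C57/B6 background, 43 females and 12 males, with 1 library per mouse. The mice were wild type (WT) or KO for Cnih3, whose KO allele lacks exon 4, and Cnih3 encodes an AMPA receptor trafficking protein. Females were assigned to metestrus, diestrus, proestrus or estrus from vaginal cytology at collection. Library totals were 25881295 to 63547098 counts, with a median of 53384170.

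Genotype and stage gave 10 groups. WT mice comprised 5 males (12 to 23.71 weeks old), 4 in metestrus (13 to 18.57 weeks), 6 in diestrus (11.71 to 17.14 weeks), 5 in proestrus (12 to 18.71 weeks) and 7 in estrus (16.29 to 20.29 weeks). KO mice comprised 7 males (18.29 to 23.71 weeks), 5 in metestrus (13.29 to 22.57 weeks), 6 in diestrus (10.86 to 23.43 weeks), 4 in proestrus (13 to 14.57 weeks) and 6 in estrus (13 to 20.71 weeks). Every KO mouse had parents recorded as CNIH3 x B6, whereas WT mice had either CNIH3 x B6 or B6 x B6 parents, the latter for 6 of 7 mice in estrus, 4 of 5 in proestrus, 3 of 4 in metestrus, 2 of 6 in diestrus and 1 of 5 males. Genotype and parents are thus partly confounded. Cnih3 itself had 21.6 to 62.5 CPM in WT mice (median 39.5) and 21.6 to 47.8 CPM in KO mice (median 31.0). These gene counts also take reads from exons that the allele keeps, so they are no check of the genotype labels.

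Mice below 14 weeks of age are called younger and the rest older. Diestrus held 3 younger and 3 older WT mice and 4 younger and 2 older KO mice. The 7 younger diestrus mice are also the 7 mice with a plain 3-digit number, and none of the other 48 mice has one. Age, number series and stage cannot be told apart among these 7 mice.

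Retinoic acid is made from retinol in successive oxidations, and retinaldehyde dehydrogenases such as Aldh1a1 carry out the last of them. It is carried to the nucleus by proteins such as Crabp2 and binds retinoic acid receptors (RARs), which act on DNA as partners of retinoid X receptors (RXRs). Cyp26 enzymes oxidize it for removal. In the adult hippocampus this pathway is known for its roles in synaptic plasticity and in the neurogenic dentate gyrus.

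Levels of different genes were compared as CPM per kilobase of summed exon length. Aldh1a1 was highest with a median of 13.5 CPM per kilobase over the 55 libraries, followed by Rxrb at 9.64. Cyp26b1 at 3.20, Rara at 3.18 and Rxra at 2.92 came next, and neighbours among these 3 genes differed by less than their spread between libraries. Crabp2 had 1.07 CPM per kilobase and Rxrg 0.887, again within their spread. Rarb was lowest at 0.181 CPM per kilobase. Aldh1a1 was above Rxrb in 48 of 55 libraries, and Rxrg was above Rarb in all 55. Per kilobase of the longest transcript the Aldh1a1 median was 28.4 CPM and the Rxrb median 14.6.

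Raw counts set how firmly each member can be read. Aldh1a1 had 1556 to 6979 counts per library, Rxrb 905 to 2808, Cyp26b1 448 to 1473, Rxra 379 to 1178 and Rara 325 to 1154. Rxrg had 41 to 245 counts, Crabp2 22 to 515 and Rarb 4 to 120, and Rarb exceeded 1 CPM in only 20 libraries. The plot of member levels by group shows these differences in spread.

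**Figure D1:**
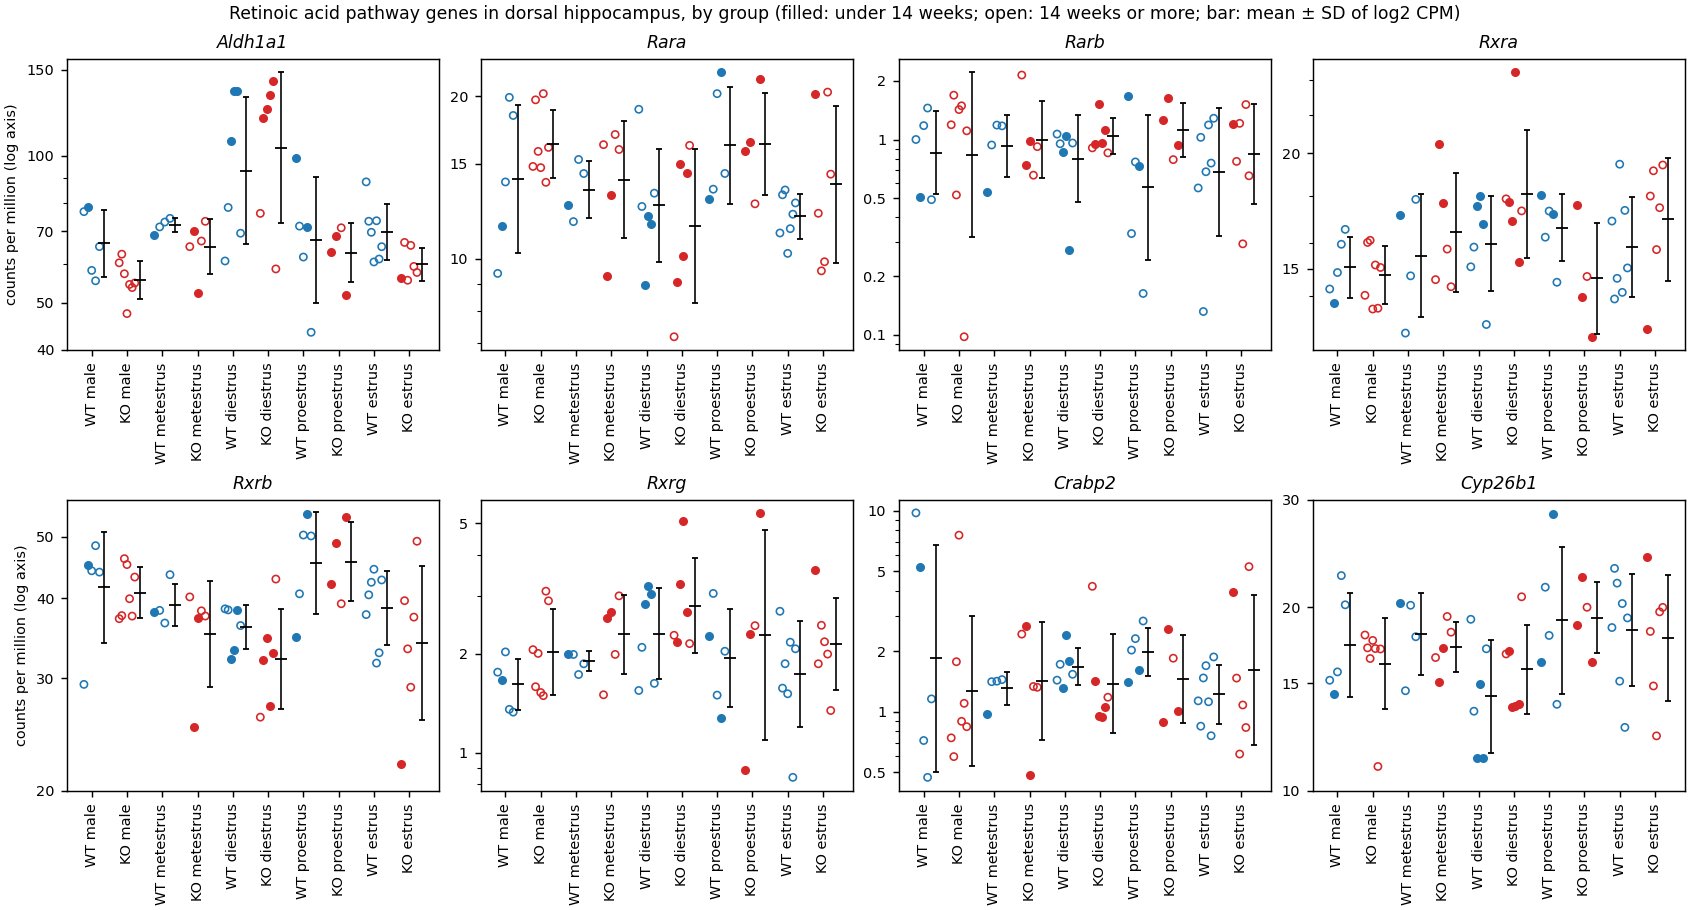
Each panel plots 1 member in CPM on a log axis for the 10 groups of genotype and stage; points are mice (filled, younger than 14 weeks; open, 14 weeks or older) and bars are the mean ± SD of log2 CPM. In the Aldh1a1 panel the filled diestrus points, 107 to 142 CPM, lie above every other point, and the Rarb and Crabp2 panels have single points far from their group.

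Aldh1a1 (ENSMUSG00000053279, GRCm38 chr19:20492715-20643465, plus strand) encodes the retinaldehyde dehydrogenase of the set. In diestrus it separated mice by age class in both genotypes. Among older WT diestrus mice it had 60.9, 69.4 and 78.4 CPM, and among younger WT diestrus mice 107, 136 and 136 CPM. Older KO diestrus mice had 58.6 and 76.2 CPM, and younger KO diestrus mice 119, 125, 133 and 142 CPM. No older mouse reached the level of a younger one in either genotype.

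In the WT mice, younger diestrus mice averaged 126 ± 16.5 CPM (SD, n = 3) and older ones 69.6 ± 8.75 CPM (SD, n = 3). The log2 fold change was 0.84 (SE 0.13, a 1.79-fold difference), with a false discovery rate (FDR) of 5.2e-06 by limma with Benjamini-Hochberg adjustment over all genes tested. Calls here are made at an FDR below 0.05. Of 8 members tested in this comparison 1, Aldh1a1, was called, while 30.9% of all genes tested were. Leaving out any 1 diestrus mouse gave log2 fold changes of 0.78 to 0.96 and FDRs of at most 0.000179. The 3 younger WT mice all had CNIH3 x B6 parents, as had 1 of the 3 older ones, mouse 8_1, and among mice of such parents alone the log2 fold change was 0.87 (FDR 0.00473). In the KO mice, described only, the means were 130 ± 10.0 CPM (SD, n = 4) and 67.4 ± 12.4 CPM (SD, n = 2), a log2 difference of 0.95 (SE 0.15).

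Outside diestrus, age class did not separate the mice in this way. The 10 younger mice of other groups had 52.0 to 99.2 CPM (median 68.7) and the 33 older ones 43.5 to 88.4 CPM (median 65.1), so the ranges overlapped. These 10 mice were 12 to 13.57 weeks old, and the younger diestrus mice 10.86 to 13.86 weeks. Mice below 12 weeks were thus found only in diestrus. At 12 weeks, WT male 19_1 (78.5 CPM) and WT proestrus mouse 20_2 were each the highest of their group. The oldest younger diestrus mouse, KO mouse 532 at 13.86 weeks, had 119 CPM. The 5 older diestrus mice, at 58.6 to 78.4 CPM, lay within the range of the older mice of other groups. The highest mouse outside diestrus was WT proestrus mouse 20_2, aged 12 weeks, at 99.2 CPM, and the lowest was WT proestrus mouse 8_2 at 43.5 CPM. With age in weeks fitted beside the 10 group means, Aldh1a1 changed by -0.036 on the log2 scale per week (SE 0.013), which is described only, since the KO diestrus mice enter this fit. None of the other 7 members was called for age by limma, edgeR or DESeq2, against 0.0804% of all genes by limma, and 0 of the 7 had an unadjusted p below 0.05 by limma.

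**Figure D2:**
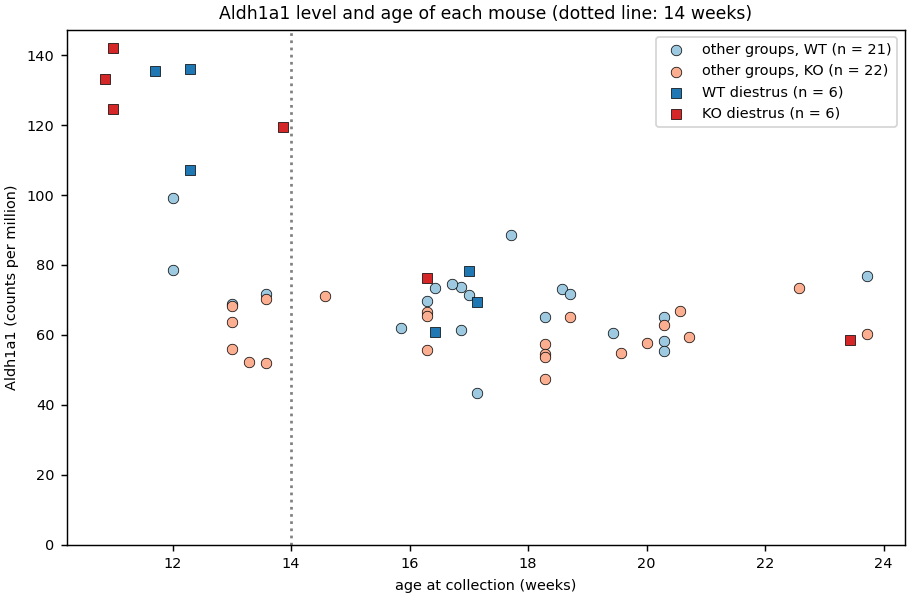
Aldh1a1 in CPM (linear axis from 0) is plotted against age in weeks for each of the 55 mice, with diestrus mice as squares and other groups as circles. The 7 younger diestrus mice lie at 107 to 142 CPM, and the 10 younger mice of other groups at 52.0 to 99.2 CPM.

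Other measures moved with age class in the same diestrus mice. The summed level of 9 astrocyte markers was 3779 to 3974 CPM in younger and 2413 to 2828 CPM in older WT diestrus mice, and 3638 to 3955 against 2677 to 3282 CPM in KO mice, with 2 of 9 markers called higher in each genotype, where 30.9% (WT) and 8.67% (KO) of all genes were called. The sum of 12 oligodendrocyte markers was 3379 to 3796 CPM in younger and 4744 to 5853 CPM in older WT mice, with 6 of 12 called lower, and 3263 to 4188 against 3580 to 5203 CPM in KO mice, with 4 of 12 called lower. The sum of 9 choroid plexus markers was 211 to 1146 CPM in younger and 45.7 to 175 CPM in older WT mice, and 133 to 674 against 27.6 to 52.4 CPM in KO mice, with none of the 9 called. The sum of 6 hippocampal neuron markers was 9991 to 11107 CPM in younger and 7982 to 9745 CPM in older WT mice, and 10040 to 11424 against 8445 to 9340 CPM in KO mice. Markers of dentate granule cells summed to 262 to 303 CPM in younger and 326 to 408 CPM in older WT mice, and to 276 to 334 against 315 to 382 CPM in KO mice. In KO mice the ranges of the dentate granule cell and oligodendrocyte sums overlapped between age classes. Sums of CA1 pyramidal cell markers overlapped in both genotypes, at 344 to 450 against 397 to 445 CPM in WT and 363 to 421 against 407 to 410 CPM in KO mice. No astrocyte, oligodendrocyte or hippocampal neuron marker was at 0 in any library, whereas the choroid plexus markers Aqp1, Slc4a5 and Folr1 were at 0 in 9, 3 and 2 libraries. Over the 55 libraries, with group means removed, Aldh1a1 followed the hippocampal neuron sum with r = 0.684 and the astrocyte sum with r = 0.58. With the dentate granule cell and CA1 pyramidal cell sums, r was -0.338 and -0.252. The hippocampal neuron sum rests mostly on Snap25 and Camk2a, with median counts of 274067 and 90206, against 1874 for Grin1. The part of these markers in the Aldh1a1 values was not tested. In bulk tissue, fewer cells of a type and less RNA per cell cannot be told apart.

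Aldh1a1 has 2 groups of annotated transcripts that start far apart, and both were quantified as estimated counts. Transcripts 205 and 206 start upstream, at chr19 positions 20492759 and 20492715, and transcript 201 starts downstream at 20601961. Over all libraries the upstream pair held a median of 41.3% of the estimated Aldh1a1 counts and transcript 201 held 57.2%. The upstream pair had 71.1 ± 5.36 estimated CPM in younger and 36.9 ± 0.608 in older WT diestrus mice (SD, n = 3 each). In KO diestrus mice the values were 80.5 ± 7.81 (SD, n = 4) and 36.3 ± 5.51 (SD, n = 2). Neither genotype had overlapping age classes for the upstream pair. Outside diestrus, WT proestrus mouse 20_2, aged 12 weeks, had 80.2 estimated CPM of the upstream pair. Its upstream share of 61.4% was the highest of all 55 mice. Transcript 201 had 80.2 ± 14.7 estimated CPM in younger and 53.6 ± 8.58 in older WT diestrus mice, and 83.0 ± 12.2 against 51.9 ± 12.8 in KO mice, with age classes that were 63.2 to 89.4 against 46.0 to 62.9 in WT and 72.5 to 100.4 against 42.8 to 61.0 in KO mice. The upstream share was 46.3 ± 2.7% in younger and 40.3 ± 3.94% in older WT mice, and 48.8 ± 4.77% against 40.8 ± 2.40% in KO mice. These transcript values rest on a statistical split of shared reads and were not tested.

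**Figure D3:**
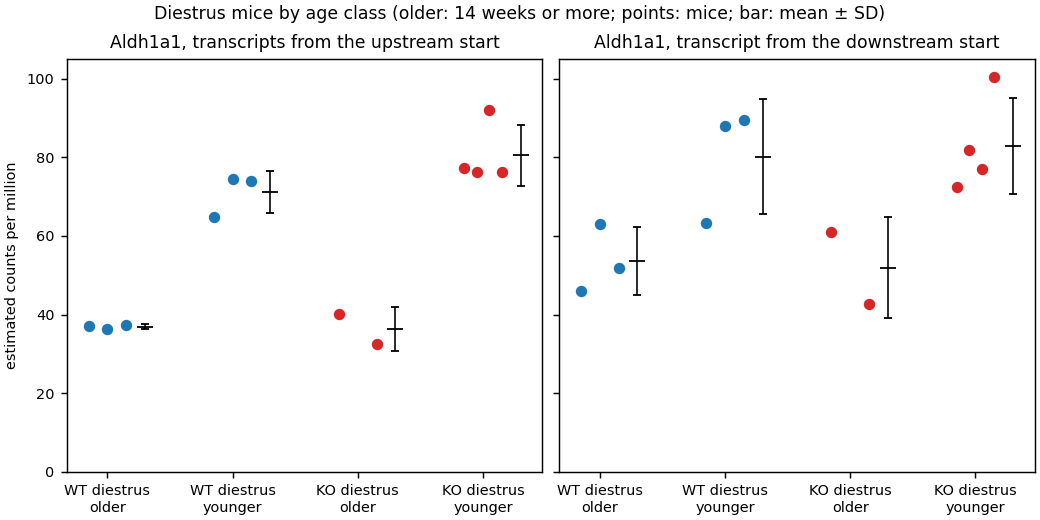
Estimated CPM of the upstream transcripts 205 and 206 (left) and of the downstream transcript 201 (right) are plotted for each diestrus mouse by genotype and age class, with bars for the mean ± SD on an axis from 0. Younger mice lie above older mice of the same genotype in both panels, with means of 71.1 against 36.9 on the left and 80.2 against 53.6 on the right in WT mice.

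The sequences around the RefSeq start nearest to each group of transcripts are shown because both groups differed in level between age classes. Each runs from 250 bases before the start to 50 after it (RefSeq, GRCm38.p6, plus strand), at chr19:20492333-20492632 for the upstream and chr19:20601718-20602017 for the downstream start.
Aldh1a1 upstream start: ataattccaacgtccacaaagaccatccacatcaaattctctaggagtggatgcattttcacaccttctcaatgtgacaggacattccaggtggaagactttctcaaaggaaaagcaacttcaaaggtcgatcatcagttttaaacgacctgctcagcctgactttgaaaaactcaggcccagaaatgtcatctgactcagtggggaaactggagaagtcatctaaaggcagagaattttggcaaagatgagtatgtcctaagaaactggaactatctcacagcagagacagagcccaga
Aldh1a1 downstream start: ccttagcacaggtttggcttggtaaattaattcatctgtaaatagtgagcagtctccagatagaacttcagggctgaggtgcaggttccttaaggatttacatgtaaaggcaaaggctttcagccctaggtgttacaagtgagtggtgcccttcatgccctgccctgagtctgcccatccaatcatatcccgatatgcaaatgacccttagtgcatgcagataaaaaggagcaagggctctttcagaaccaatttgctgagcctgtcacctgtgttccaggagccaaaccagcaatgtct
No letters are in capitals, since neither window held the motifs searched, spelled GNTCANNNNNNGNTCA and GNTCANNNGNTCA, on either strand. The first letter of each repeated unit is not specified and falls among the N, so these are direct repeats with spacers of 5 and 2 bases, the spacings to which RAR and RXR pairs are known to bind. The window with no such letters says nothing about sites elsewhere.

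Across stages in WT mice, Aldh1a1 had its highest values in diestrus. It was 69.0, 71.5, 73.2 and 74.4 CPM in metestrus, 43.5, 62.0, 71.6, 71.8 and 99.2 CPM in proestrus and 60.6 to 88.4 CPM in estrus (median 69.7). Each of these ranges overlapped that of diestrus. Aldh1a1 was lower in metestrus than in diestrus (log2 fold change -0.48, SE 0.15, FDR 0.0416) and higher in diestrus than in proestrus (0.53, SE 0.16, FDR 0.0265) and than in estrus (0.52, SE 0.14, FDR 0.00653) by limma. These comparisons share the diestrus mice. With only the older diestrus mice the 3 values were 0.03 (FDR 1), 0.03 (FDR 0.974) and 0.01 (FDR 0.994), and with only the younger ones -0.83 (FDR 2.28e-07), 0.87 (FDR 2.36e-07) and 0.87 (FDR 5.67e-09). Leaving out 1 of the younger mice 548, 549 or 569 ended all 3 calls and brought the 3 values to -0.12 to -0.08, 0.14 to 0.18 and 0.12 to 0.16 on the log2 scale. Library quality weights are estimated anew in each such fit. With all mice they were 0.89, 1.14 and 0.76 for 548, 549 and 569. For the older mice 2_2, 380_4 and 8_1 they were 0.33, 0.49 and 0.93. The call against metestrus was also lost without the metestrus mouse 13_1, 3_3 or 380_1, and that against proestrus without the proestrus mouse 4_1 or 5_4. None of the 3 calls was made by edgeR, by DESeq2, by limma without quality weights or with age in weeks in the model.

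Against WT males, which had 55.5, 58.2, 65.2, 76.8 and 78.5 CPM, WT diestrus mice had an Aldh1a1 log2 fold change of 0.68 (SE 0.17, FDR 0.086, limma). It was called with only the younger diestrus mice (1.04, FDR 1.52e-07), with only mice of CNIH3 x B6 parents (1.02, FDR 1.92e-05), and without any 1 of the older diestrus mice 2_2, 380_4 and 8_1 or of the males 19_1, 1949 and 2015 (0.72 to 0.91), or without KO diestrus mouse 7_1 (0.69), since all groups share 1 fit. WT metestrus, proestrus and estrus mice did not pass the test against males.

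In KO mice the stage values of Aldh1a1 were 52.3, 65.1, 66.9, 70.3 and 73.4 CPM in metestrus, 52.0, 63.6, 68.4 and 71.2 CPM in proestrus, 55.6 to 66.4 CPM in estrus (median 58.5) and 47.5 to 62.9 CPM in males (median 54.9). By limma with library weights, KO diestrus exceeded these groups by 0.89, 0.87, 1.01 and 1.09 on the log2 scale, described only. In the same fit KO diestrus was 0.25 above WT diestrus (SE 0.14). That difference was 0.04 with younger mice only and -0.09 with older mice only, where n is 3 and 2. Without WT mouse 548, 549 or 569 it was 0.62 to 0.66. Library weights were 1.61 to 1.74 in younger and 0.43 and 0.51 in older KO diestrus mice. The unweighted means of KO diestrus and KO males differed by 0.90, and those of KO and WT diestrus by 0.16. Ordered by unweighted mean log2 CPM, KO diestrus stood first (6.70), WT diestrus second (6.54) and KO males last (5.80). No group differed from its neighbour in the order by more than the larger of their SDs.

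Aldh1a1 has a near-identical neighbour, Aldh1a7, and reads that match both cannot be assigned from these counts. Aldh1a7 had 0 to 39 counts per library and at most 0.762 CPM. The 3 genes whose levels followed Aldh1a1 most closely across the 55 libraries after group means were removed were Acsbg1 (r = 0.812), Suclg2 (r = 0.803) and Ndrg2 (r = 0.801).

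Crabp2 (ENSMUSG00000004885, GRCm38 chr3:87948666-87953376, plus strand), the binding protein that delivers retinoic acid to RARs, was set apart by a few libraries. Group medians were 0.895 to 2.02 CPM. WT male 1949 had 9.74 CPM and WT male 19_1 had 5.27, whereas the other WT males had 0.471 to 1.16 CPM. KO male 2129 had 7.55 CPM among males that were otherwise at 0.598 to 1.78 CPM. KO estrus mice 9_1 and 12_1 had 5.26 and 3.95 CPM, and KO diestrus mouse 2592 had 4.20 CPM.

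Crabp2 passed no test in any comparison. Its log2 fold change between genotypes was -0.53 to 0.17 over the 5 conditions, with SEs of 0.45 to 0.57. Between younger and older KO diestrus mice it was -1.01 (SE 0.65, FDR 0.349, limma), and -1.93 (FDR 0.0489) without the older mouse 7_1. That value sets 1 older mouse, 2592, against the younger ones and assumes that it varies like the other groups.

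The summed level of 9 meningeal fibroblast markers moved with Crabp2. It was 113 CPM in WT male 1949, 78.3 in KO male 2129, 60.5 in KO estrus mouse 9_1, 51.8 in KO diestrus mouse 2592 and 49.2 in WT male 19_1, but 19.2 in KO estrus mouse 12_1. Of the 9 markers 7 passed the low-count filter, and Igf2 was at 0 in 2 libraries. Across the 55 libraries with group means removed, r between Crabp2 and this sum was 0.758. The genes most like Crabp2 were Ptgds (r = 0.754), Aldh1a2 (r = 0.752), a retinaldehyde dehydrogenase, and Slc13a3 (r = 0.749). The part of meningeal tissue in the Crabp2 values was not tested.

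**Figure D4:**
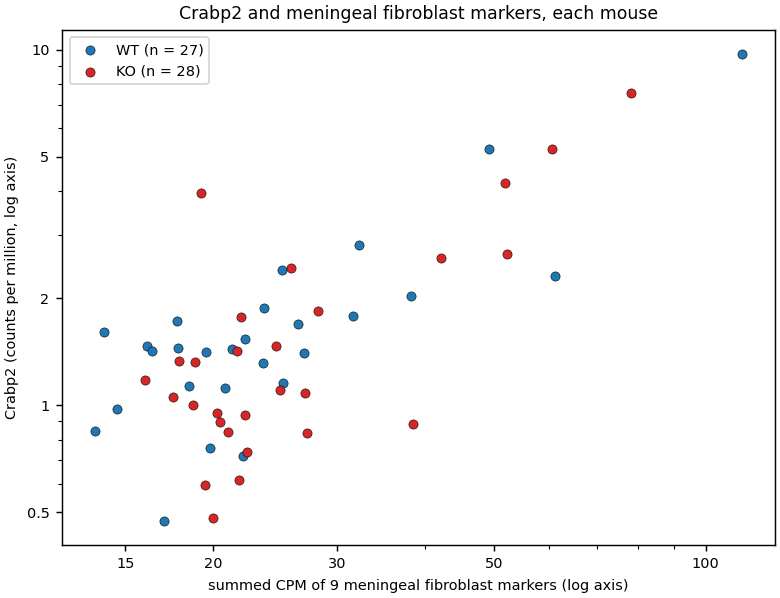
Crabp2 in CPM is plotted against the summed CPM of 9 meningeal fibroblast markers, both on log axes, for each of 27 WT and 28 KO mice. The library highest on both axes is a WT male at 9.74 CPM of Crabp2 and 113 CPM of the markers, and 1 KO library at 3.95 CPM of Crabp2 has a marker sum of 19.2 CPM.

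Rara (ENSMUSG00000037992, GRCm38 chr11:98927818-98974942, plus strand) encodes the more highly expressed of the 2 member RARs per kilobase. KO diestrus mice had 7.17 to 16.2 CPM (median 12.3), KO males 13.9 to 20.2 CPM (median 15.8) and KO proestrus mice 12.6, 15.9, 16.5 and 21.5 CPM. The lowest 3 of 6 KO diestrus mice lay below every male, and the rest overlapped them. Rara was lower in KO diestrus than in KO males (log2 fold change -0.52, SE 0.15, FDR 0.00791) and than in KO proestrus (-0.45, SE 0.18, FDR 0.0388) by limma. The second call was lost without any 1 of 10 mice, namely the KO diestrus mice 2592, 532 and 644, the KO proestrus mice 12_4, 12_5 and 14_2 and 4 mice of other groups (-0.43 to -0.40). Neither was made by edgeR, DESeq2 or limma without weights, or with age in weeks in the model (FDR 0.163 and 0.0624).

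In WT mice Rara was 12.9, 13.5, 14.4, 20.2 and 22.2 CPM in proestrus and 10.2 to 13.4 CPM in estrus (median 12.1). It was higher in proestrus (log2 fold change 0.52, SE 0.17, FDR 0.0457, limma), with overlap at the lower end. Without the proestrus mouse 4_1 it was 0.34 (FDR 0.312), and without 5_4 it was 0.36 (FDR 0.194), and the call was lost without any 1 of 16 mice, 8 of them from the groups compared. Among mice of CNIH3 x B6 parents alone it was 0.16 (FDR 0.895).

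Rarb (ENSMUSG00000017491, GRCm38 chr14:16430839-16819156, minus strand) is itself a known target of retinoic acid and is the member with the fewest counts. Group medians were 0.734 to 1.19 CPM. Single libraries fell far below, as KO male 2590 at 0.0978 CPM and WT estrus mouse 3_1 at 0.132 CPM. Rarb passed no test. Its difference between all KO and all WT mice was 0.42 on the log2 scale (SE 0.20, FDR 0.251, limma). Across libraries it followed Csnk2a1 (r = 0.722), Hsdl1 (r = 0.717) and Ets1 (r = 0.716), and the summed markers of striatal projection neurons (r = 0.536) and thalamic neurons (r = 0.5).

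A promoter of Rarb is shown because it held the direct repeat with 5 spacing bases in letters. It lies at chr14:16575427-16575726 on the minus strand of GRCm38.p6 (RefSeq), and the motif, in capitals, begins 52 bases before the start.
Rarb promoter: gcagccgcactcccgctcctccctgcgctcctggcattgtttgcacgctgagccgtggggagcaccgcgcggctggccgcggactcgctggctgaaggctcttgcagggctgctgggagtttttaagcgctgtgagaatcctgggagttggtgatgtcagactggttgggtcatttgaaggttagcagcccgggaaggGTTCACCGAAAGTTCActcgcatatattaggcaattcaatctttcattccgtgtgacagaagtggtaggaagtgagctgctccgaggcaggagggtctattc
The letters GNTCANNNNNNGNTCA were found on either strand in 283 of 32851 RefSeq promoters of this length (0.861%) and in 1 of the 14 promoter windows of the 7 members with an entry. GNTCANNNGNTCA was found in 367 (1.12%) and in none of the 14. A match in letters is no evidence of binding in these mice.

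Rxra (ENSMUSG00000015846, GRCm38 chr2:27676440-27762957, plus strand), an RXR, was the steadiest member, with an SD of 0.19 on the log2 scale over all libraries. KO diestrus mice had 15.3 to 24.5 CPM (median 17.5) and KO males 13.6 to 16.1 CPM (median 15.0). Only the lowest KO diestrus mouse fell within the range of males, and mouse 644 stood above the rest at 24.5 CPM. Rxra was higher in KO diestrus than in KO males (log2 fold change 0.29, SE 0.09, FDR 0.0156, limma), but it was 0.17 (FDR 0.146) without mouse 644 and 0.24 (FDR 0.0541) without male 2129. Fitting age beside the group means gave 0.19 (FDR 0.316), and no KO male was younger than 14 weeks. DESeq2 made the call, but edgeR (FDR 0.0716), limma without weights (FDR 0.0741) and limma without the low-count filter (FDR 0.0693) did not. Among WT diestrus mice the younger had 16.8, 17.6 and 18.0 CPM and the older 13.1, 15.1 and 15.8 CPM, without overlap, and the log2 fold change of 0.28 (SE 0.14) had an FDR of 0.123.

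Rxrb (ENSMUSG00000039656, GRCm38 chr17:34031812-34038399, plus strand), the RXR highest per kilobase, was the only member besides Aldh1a1 with a call that limma, edgeR and DESeq2 shared. KO proestrus mice had 39.2, 42.1, 48.9 and 53.7 CPM and KO diestrus mice 26.1 to 42.9 CPM (median 32.5). KO diestrus mouse 7_1 at 42.9 CPM overlapped the proestrus mice and the other 5 did not. Rxrb was lower in KO diestrus than in KO proestrus (log2 fold change -0.51, SE 0.12, FDR 0.000788, limma; edgeR FDR 0.0326, DESeq2 FDR 0.0205) and remained so without any 1 mouse (-0.55 to -0.44, FDR at most 0.0231). With only the 2 older KO diestrus mice it was -0.45 (FDR 0.726). Against KO males, which had 37.2 to 46.2 CPM (median 39.96), the log2 fold change was -0.37 (SE 0.10, FDR 0.00615, limma), a call made neither by edgeR nor DESeq2, nor with age in weeks in the model (-0.26, FDR 0.203).

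Rxrg (ENSMUSG00000015843, GRCm38 chr1:167598384-167639623, plus strand) is the RXR of lowest level. KO diestrus mice had 2.15 to 5.09 CPM (median 2.48) and KO proestrus mice 0.884, 2.29, 2.44 and 5.38 CPM, so the groups overlapped throughout. The log2 fold change of 0.74 (SE 0.29, FDR 0.0398, limma) fell to 0.14 (FDR 0.783) without the lowest proestrus mouse, 12_4, and was 0.11 by edgeR and 0.13 by DESeq2. The call was also lost without 643, 644 or 12_5 (0.52 to 0.74). In WT diestrus mice the younger had 2.83, 3.05 and 3.21 CPM and the older 1.55, 1.63 and 2.09 CPM, without overlap, and the difference of 0.77 on the log2 scale (SE 0.36) had an FDR of 0.101 by limma.

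Cyp26b1 (ENSMUSG00000063415, GRCm38 chr6:84571414-84593908, minus strand) encodes the enzyme that clears retinoic acid. WT diestrus mice had 11.3 to 19.1 CPM (median 14.2) and WT proestrus mice 13.9, 16.3, 18.0, 21.6 and 28.5 CPM. KO diestrus mice had 13.7 to 20.8 CPM (median 15.3) and KO proestrus mice 16.3, 18.7, 20.0 and 22.4 CPM. In both genotypes diestrus reached lower values than proestrus, with overlap in the middle. The log2 fold change of diestrus against proestrus was -0.53 (SE 0.16, FDR 0.032) in WT and -0.42 (SE 0.14, FDR 0.0167) in KO mice by limma. Neither was called by edgeR or DESeq2. The WT call was lost without 548, 549, 569 or 5_4 (-0.47 to -0.32) and became -0.05 (FDR 0.92) among mice of CNIH3 x B6 parents, and the KO call was lost without 12_4 or 12_5 (-0.44 and -0.32).

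No difference of a member between KO and WT mice passed the test. None of 39 tests within conditions was called, and the smallest FDR was 0.395. The share of all genes called was 0% for diestrus, 0.00619% for males, 0.0247% for metestrus, 0.179% for estrus and 0.315% for proestrus mice. Between all KO and all WT mice none of 7 members was called, against 3.4% of all genes. DESeq2 and edgeR called none either, and 1 of these 46 limma tests, that of Rarb, had an unadjusted p below 0.05.

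Against males, 3 of 63 member tests were called, all in KO diestrus, where 3 of 7 members compare with 28.7% of all genes. None of 8 members was called in any other stage, against 0.0309%, 0.068%, 0.0309% and 0.0495% of all genes in WT metestrus, diestrus, proestrus and estrus and 0.359%, 0.315% and 7.66% in KO metestrus, proestrus and estrus.

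Between stages, 9 of 93 member tests were called. In WT mice 1 of 8 members was called between estrus and diestrus (22.1% of all genes), 2 between proestrus and diestrus (9.66%), 1 between metestrus and diestrus (7.24%) and 1 between estrus and proestrus (6.82%), and none between metestrus and either proestrus (0.767%) or estrus (0%). In KO mice 4 of 7 members were called for diestrus against proestrus (34.3%), and none in the other 5 pairs of stages, in which the share of all genes was 30.7% (estrus and diestrus), 10.4% (diestrus and metestrus), 4.37% (proestrus and metestrus), 0.507% (estrus and proestrus) and 0% (estrus and metestrus). The median member log2 fold change for KO diestrus against proestrus was -0.38, and that of all genes was -0.03. All 12 calls between stages or against males were of groups whose ranges overlapped, and of the 12, edgeR made 1. The map of log2 fold changes shows them by member and comparison.

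**Figure D5:**
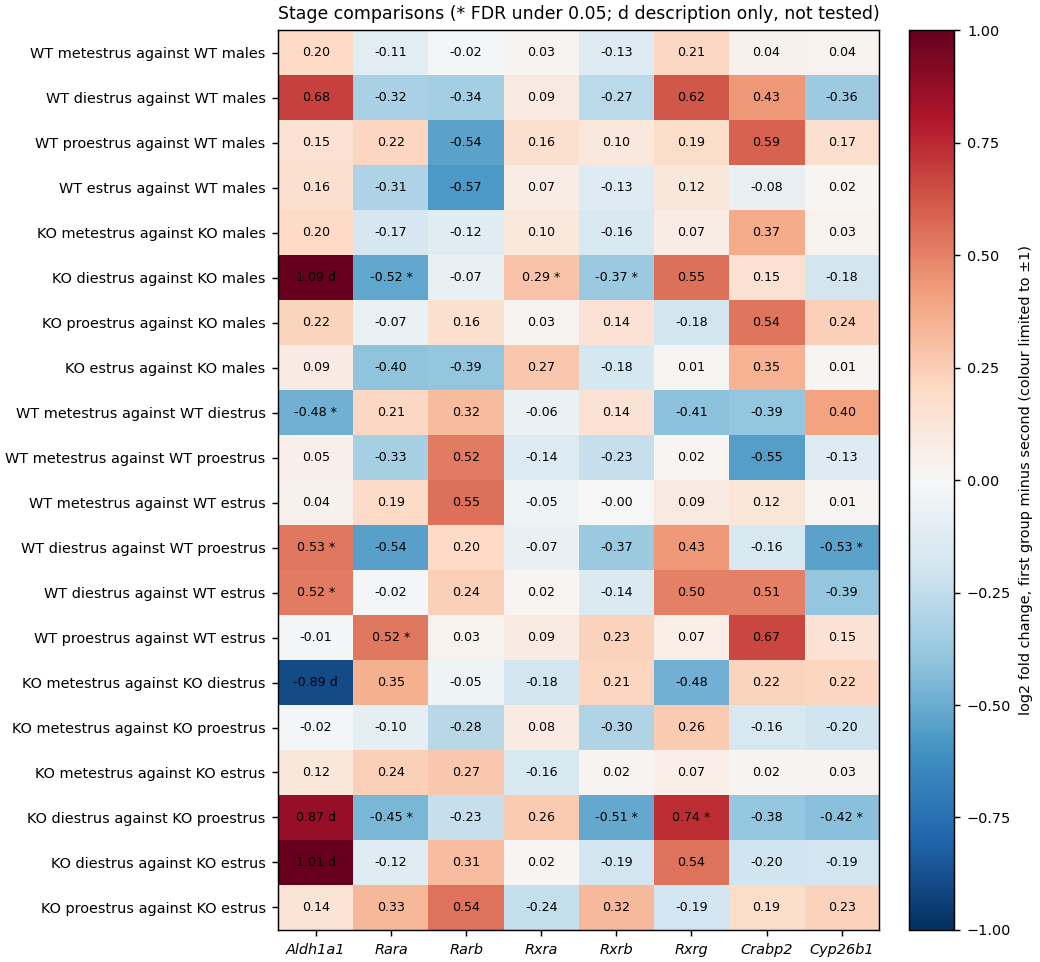
Rows are the 8 comparisons of stages with males and the 12 pairs of stages, columns are the 8 members, and colours give the log2 fold change of the first group minus the second. Marks show calls at an FDR below 0.05, which number 3 against males and 9 between stages, and Aldh1a1 comparisons with KO diestrus carry no test.

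Whether a diestrus difference itself differed by genotype was tested against metestrus, proestrus, estrus and males. None of 28 member tests was called, as was none of all genes (0% in each of the 4 comparisons). Rxra against proestrus had the smallest unadjusted p (0.0463, FDR 0.378). Younger against older KO diestrus mice gave no call among 7 members, against 8.67% of all genes.

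The other genes of the pathway were taken from lists of 68 genes, of which 41 passed the low-count filter. Besides retinoid enzymes, carriers, receptors and response genes, the lists hold co-repressors, co-activators and RXR partner receptors. Listed genes were read from the main limma fits only, without the alternatives and leave-outs given for the members. None of the 41 was called between KO and WT in any condition, where 0 to 0.315% of all genes were called. Between all KO and all WT mice none was called either, against 3.4% of all genes. In younger against older WT diestrus mice 6 rose and 2 fell (19.5%, against 30.9% of all genes): Dhrs3, which reduces retinaldehyde to retinol, had a log2 fold change of 0.69 (FDR 0.000226), the fatty acid and retinoic acid carrier Fabp5 0.56 (FDR 0.000517), Adh5 0.41 (FDR 0.00236), Dhrs4 0.42 (FDR 0.011), the co-repressor subunit Hdac3 0.34 (FDR 0.0047) and the co-activator Ncoa3 -0.83 (FDR 0.00328), all by limma. In KO mice none rose and 1 fell (2.44%, against 8.67% of all genes).

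Against KO males, KO diestrus had 9 of the 41 higher and 7 lower (39%, against 28.7% of all genes), and KO estrus 7 higher and 1 lower (19.5%, against 7.66%). In KO estrus, 6 of 10 co-repressors and co-activators were higher. Of 9 RXR partner receptors, 1 was higher and 1 lower. No listed retinoid enzyme, carrier, receptor, breakdown enzyme or response gene was called in KO estrus against males. Younger mice made up 4 of the 6 in KO diestrus and 0 of the 7 KO males. For the listed genes, age in weeks was fitted only as a slope beside the group means. None of the 41 was called for it, against 0.0804% of all genes. The comparison of KO diestrus with KO males was not refitted with age for the listed genes. The receptor Rarg had the smallest FDR, with 2.11 ± 0.713 CPM in KO diestrus (SD, n = 6) and 4.07 ± 0.791 CPM in KO males (SD, n = 7), a log2 fold change of -1.07 (FDR 5.6e-06, limma). The co-activator Crebbp was higher (0.31, FDR 3.08e-05), as were the RXR partner Thrb (0.37, FDR 0.000215), Dhrs4 (0.37, FDR 0.00244) and Dhrs3 (0.41, FDR 0.00259). No stage of WT mice had a listed gene called against WT males, where 0.0309% to 0.068% of all genes were called.

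Between stages the largest counts were in KO diestrus against proestrus, with 7 listed genes higher and 8 lower (36.6%, against 34.3% of all genes), and KO diestrus against estrus, with 5 and 6 (26.8%, against 30.7%). WT diestrus against estrus gave 4 higher and 5 lower (22%, against 22.1%) and WT proestrus against estrus 6 and 2 (19.5%, against 6.82%). Rarg fell by 1.21 on the log2 scale from KO proestrus to diestrus (FDR 5.74e-06), and Nr4a1, an RXR partner, was lower in KO diestrus than in estrus (-0.90, FDR 0.000625). Nr1h2, another RXR partner, was higher in WT proestrus than in estrus (0.49, FDR 0.000931). Crebbp and Thrb were higher in KO diestrus than in proestrus (0.32, FDR 0.000134, and 0.35, FDR 0.00153), and Dhrs4 was higher in KO diestrus than in estrus (0.43, FDR 0.00198).

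Among the members, Cyp26b1 and Rara moved together most closely across the 55 libraries with group means removed (r = 0.537), followed by Rara and Rxrb (r = 0.46), and the remaining pairs had r between -0.322 and 0.326. The genes most like the other members were Mapk8ip1 (r = 0.804) for Rara, Gabra3 (r = 0.663) for Rxra, Prr12 (r = 0.91) for Rxrb, Aimp2 (r = 0.641) for Rxrg and Fam53b (r = 0.746) for Cyp26b1. Next in likeness were Plch2 and Cacnb1 for Rara, Ppargc1a and Pou3f3 for Rxra, Ehmt2 and Zfp651 for Rxrb, Hmgb1 and Stmn2 for Rxrg and Rimbp2 and Hunk for Cyp26b1. These correlations share library, depth and tissue makeup and are given as descriptions.

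Transcript shares of Rara ranged widely between libraries. Of the estimated Rara counts, transcript 202 held 3.48 to 97.0% and transcript 207 held 0 to 95.3% across libraries. Rarb transcript 201 held a median of 78.5%, Cyp26b1 transcript 205 held 98.9% and Crabp2 transcript 201 held 100%. Median estimated counts were only 27.5 for Rarb transcript 201 and 24 for Crabp2 transcript 201. Transcript shares of Rxra and Rxrb were not analysed here.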

How the data were processed

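Dorsal hippocampus RNA of 55 mice was sequenced as 1 library per mouse. The authors aligned reads to GRCm38 with STAR 2.7.9a, counted them per Ensembl 101 gene with featureCounts 2.0.3 and estimated transcripts with Salmon 1.5.2, and deposited gene counts, transcript estimated counts and log2 CPM. The deposited log2 values were used only to check the CPM computed here. A count column that matched no sample (1) was not used, and 287 repeated gene lines and 5 ribosomal genes were left out.

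Groups were taken from the sample labels and ages and parents from the labels and the study's sample records. Genes above 1 CPM in at least 10 libraries were scaled by TMM (factors 0.92 to 1.05) and fitted with 1 mean per group over all 55 libraries by limma 3.58.1 (voomWithQualityWeights, R 4.3.3), with diestrus split at 14 weeks for the age comparison, and FDRs were adjusted over 16168 genes. Alternatives, given for the members only, were edgeR 4.0.16, DESeq2 1.42.0, no weights, no low-count filter, age as a covariate, subsets of mice and leaving out each mouse. The scripts were tested on simulated counts. The highest correlation between 2 libraries was 0.9905, and none were identical. P-values set differences of weighted group means against the spread between mice, and the main fits take mice as independent. Members, gene lists and tests were chosen with earlier results of these data known. All members were named, with the 6 listed genes of smallest FDR per family of comparisons and the 3 genes most like each member, except for a withheld item that is not reported here, and Crabp2 marker libraries were named after their values were seen.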

Additional observations from a re-analysis of the deposited data

Results flagged for a closer look

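In 80 groups of 4 to 7 mice, 8 members in each of 10 groups, the log2 level of 1 mouse stood apart in 10, where chance would flag about 1 in 20 groups. The value is the gap between that mouse and its nearest neighbour as a share of the whole range of the group. For Crabp2 these were KO diestrus mouse 2592 (0.724, high), KO male 2129 (0.572, high) and WT metestrus mouse 13_1 (0.935, low). For Rarb they were WT diestrus mouse 569 (0.84), KO male 2590 (0.577) and WT estrus mouse 3_1 (0.631), all low and of few counts. KO male 2590 was also low for Cyp26b1 (0.822). For Rxrb they were KO metestrus mouse 11_1 (0.837) and WT male 1949 (0.809), both low, and for Rxra KO diestrus mouse 644 (0.668), which was high. Crabp2 was high in mice 2592 and 2129 together with the summed meningeal fibroblast markers, whose part was not tested. No difference between genotypes in a diestrus contrast passed its test (0 of 28).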

How the results depend on the processing

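Of the 13 called values with a test, the same call was made for 2 by edgeR, 3 by DESeq2, 2 by limma without quality weights, 5 without the low-count filter, 13 with the leading number of each mouse as a random effect and 10 with mice of CNIH3 x B6 parents only. A mouse with a plain number was its own level of that random effect, as were all KO males and all younger diestrus mice. For comparisons of these mice the random effect could hardly change a call. Of the 12 that hold no age contrast, 3 kept the call with age as a covariate, 11 with only younger diestrus mice and 0 with only older ones, where Aldh1a1 in WT metestrus against diestrus turned to 0.032. The last setting leaves 3 WT and 2 KO diestrus mice. Under it Aldh1a1 in WT diestrus against estrus went from 0.52 to 0.01, whereas Rara in KO diestrus against males went from -0.52 to -0.65. The cause of the losses was not tested. The 3 calls against males became 0 (edgeR), 1 (DESeq2), 0 (no weights), 8 (CNIH3 x B6 parents), 0 (age covariate) and 0 (older diestrus mice). Among mice of CNIH3 x B6 parents, Aldh1a1, Cyp26b1, Rara, Rxrb and Rxrg were newly called in WT diestrus against males. That subset holds 3 younger WT diestrus mice and 1 older. The 9 calls between stages became 1 (edgeR), 1 (DESeq2), 1 (no weights), 2 (no filter), 3 (age covariate) and 0 (older diestrus mice). Shares of all genes called are not given for these settings or for leaving out mice. The counts are therefore not read as a result about the members.

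Leaving out 1 mouse at a time gave 2 to 7 calls against males, 5 to 15 between stages, 1 to 2 between age classes, and it kept 0 for age, for KO against WT within conditions, for all KO against all WT and for the interactions. It kept 102 of 142 single calls and reversed none. No paired analysis was possible because no source says that mice of different groups with the same leading number share a litter, cage or day. That number was fitted only as the random effect above. Depth limits Rarb, Crabp2 and Rxrg, whose counts were lowest.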
